A study of Mus musculus with 6 samples.

Results

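The 10 genes described here encode non-collagen matrix proteins that fibroblasts are known to secrete: Fn1, Sparc, Postn, Fbn1, Eln, Vcan, Bgn, Dcn, Lum and Thbs1. They were taken by symbol from a table of 13595 genes, and all 10 were present. Poly(A) RNA was sequenced in 6 libraries of primary cells that were positive for CD31, an endothelial surface protein, from livers of C57BL6/J mice at 4 weeks of age. Of these libraries, 3 were labelled male and 3 female, with replicate numbers 4, 5 and 6 in each group. The cells of all 6 libraries received 100 µM indoxyl sulfate, a tryptophan metabolite that activates the aryl hydrocarbon receptor (AHR), together with 6 hours of hypoxia and nutrient deprivation. The labelled sex was thus the only contrast the labels give, and no effect of indoxyl sulfate or hypoxia can be read from these libraries. The labels do not say whether the replicates are mice, isolations or wells, so each SD and p-value covers only the spread between these libraries, which may be technical.

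Matrix proteins form the scaffold between cells. Fibronectin (Fn1) assembles into fibrils that cells hold through integrins. Fibrillin (Fbn1) builds the microfibrils on which elastin (Eln) is laid down. Versican (Vcan) is a large proteoglycan that binds hyaluronan, while biglycan (Bgn), decorin (Dcn) and lumican (Lum) are small leucine-rich proteoglycans that sit on collagen fibrils or bind growth factors. SPARC, periostin (Postn) and thrombospondin 1 (Thbs1) are matricellular proteins, which modulate how cells attach rather than bear load. In the liver, stellate cells and portal fibroblasts are the best known sources of most of these proteins, and endothelial cells are known to make several of them, fibronectin, SPARC and biglycan among them.

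Reads recovered for the 13595 genes numbered between 22303270 and 31189363 per library. A normalized read count of 0.106 to 0.142 corresponds to 3 reads. Replicates differed by more than sampling noise, and male replicate 4 stood apart from the others of its group (chi-square statistic per gene of 43.6 and 45.4 against male 5 and 6, with 4.35 to 9.59 for the other pairs within a group). Xist, the RNA of X inactivation, was at 286 ± 46.7 in female-labelled libraries and 0.323 ± 0.176 (SD, n = 3) in the male-labelled ones. The Y-linked Ddx3y was nevertheless at 52.1 ± 4.93 in the female-labelled libraries, against 57.0 ± 16.8 in the male-labelled ones (SD, n = 3), which goes against the label of all 3 female libraries. Of the other Y-linked genes, Uty also overlapped between the groups (24.1 ± 3.12 female-labelled, 26.9 ± 4.41 male-labelled), whereas Eif2s3y (29.8 ± 0.411 and 58.1 ± 2.97) and Kdm5d (19.1 ± 1.61 and 34.8 ± 3.61, SD, n = 3) were called lower in the female-labelled libraries. Xist and Y-linked transcripts were thus present together in these 3 libraries, and whether they hold cells of both sexes was not tested. Each direction given here therefore rests on the labels, and because it concerns a whole group no comparison can be made without these libraries. Pecam1, which encodes CD31, was at 73.9 ± 0.540 in the female-labelled libraries and 407 ± 16.2 in the male-labelled ones (SD, n = 3), so the defining marker of the selection was present in both and lower in the former.

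Sequence upstream of the start site is shown for Bgn and Vcan, which were lower by nearly the same factor in the female-labelled libraries, and for Sparc, which was higher. Each run is the 250 bases before an annotated start in RefSeq (GRCm38.p6), read 5′ to 3′ on the strand of the gene, and 5 of the 10 genes had an entry (Fbn1, Postn, Sparc, Vcan and Bgn). Capitals mark matches on either strand to any of 6 short motifs: GCGTG (the core bound by AHR), ACGTG (the core bound by hypoxia-inducible factors), TGANTCA (AP-1), CAGAC (the SMAD box), GGAATG (TEAD) and TATAAA (the TATA box).
Bgn (chrX:73483351-73483600, plus strand): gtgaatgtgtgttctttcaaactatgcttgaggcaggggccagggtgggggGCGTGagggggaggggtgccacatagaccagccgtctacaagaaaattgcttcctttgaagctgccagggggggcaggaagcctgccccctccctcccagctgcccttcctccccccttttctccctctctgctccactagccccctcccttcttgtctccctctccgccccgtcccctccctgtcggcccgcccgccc
Vcan (chr13:89742513-89742762, minus strand): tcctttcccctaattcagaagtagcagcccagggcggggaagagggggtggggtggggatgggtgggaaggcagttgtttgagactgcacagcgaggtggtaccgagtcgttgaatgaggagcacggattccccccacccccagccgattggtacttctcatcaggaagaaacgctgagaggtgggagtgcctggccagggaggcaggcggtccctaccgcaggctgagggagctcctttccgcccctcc
Sparc (chr11:55420081-55420330, minus strand): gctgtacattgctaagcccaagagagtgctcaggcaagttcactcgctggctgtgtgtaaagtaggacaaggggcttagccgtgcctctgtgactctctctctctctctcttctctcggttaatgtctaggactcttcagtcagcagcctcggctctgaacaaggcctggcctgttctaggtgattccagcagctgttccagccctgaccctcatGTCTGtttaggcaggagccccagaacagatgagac

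Bgn held 1 GCGTG, which begins 199 bases before the start, and no core of hypoxia-inducible factors. The former occurs in 28.2% and the latter in 16.6% of all 32851 upstream windows of this length. Vcan held none of the 6 motifs. Sparc held 1 SMAD box, 35 bases before the start, a motif present in 42.2% of all windows. Fbn1 held none, and the windows of the 2 annotated starts of Postn held a SMAD box and a TATA box respectively (TATAAA in 12.4% of all windows). TGANTCA (6.75% of all windows) and GGAATG (12.6%) were not found in any of the 6 windows of these genes. A match of letters is a description of the window and not a binding site.

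The set did not move as one. Of the 10 genes, 6 were lower in the female-labelled libraries (Fbn1, Eln, Vcan, Bgn, Dcn and Lum), 2 were higher (Thbs1 and Sparc) and 2 passed no threshold (Fn1 and Postn), by limma on log2(value + 1) with Benjamini-Hochberg adjustment over 12568 genes at 0.05. Both genes that were higher encode matricellular proteins, but so does Postn, which was not called (log2 fold change -0.46). Of all genes tested, 69.3% were called, with 34.6% higher and 34.6% lower. The total of 8 called is thus near the share among all genes. The groups did not overlap for these 8 genes, as for 74.1% of all genes tested. edgeR on recovered reads gave each of the 10 the same call and direction (68% of its genes called). Thbs1, Vcan, Bgn and Dcn also had an absolute log2 fold change of 1 or more, as did 20.6% of all genes tested. Eln and Lum did so too, but their difference was fixed by the filter. All 10 genes met the minimum of 1 in at least 3 libraries, but Eln and Lum met it through the male-labelled libraries alone and so had to differ, which leaves 2 higher and 4 lower of 8. The median log2 fold change of the 10 was -0.81, and that of all genes tested was 0.01. Setting Lum, the lowest of the 10, to its bound cannot move this median. Without Eln and Lum the median would lie between the values of Fbn1 (-0.53) and Postn (-0.46).

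**Figure D1:**
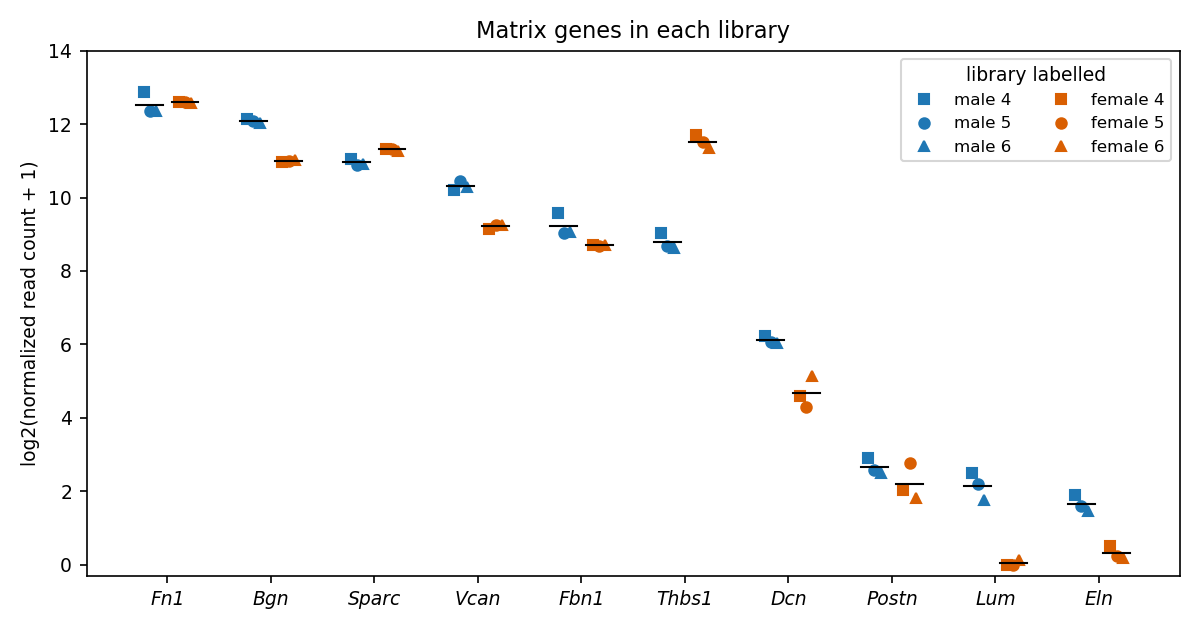
Levels of the 10 matrix genes in each library, as log2(normalized read count + 1) on the y axis, ordered by the mean of the male-labelled libraries. Points are libraries (blue male, orange female, shape by replicate number) and black lines are means of 3; Thbs1 is the gene with the widest rise, and Lum lies at or near 0 in all 3 female-labelled libraries.

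Thrombospondin 1, a trimeric glycoprotein that restrains angiogenesis and can activate latent TGF-beta, showed the largest difference among the well expressed members. Its normalized read count was 528, 411 and 393 in male 4, 5 and 6, and 3321, 2905 and 2596 in female 4, 5 and 6. The groups were far apart, with the lowest library labelled female well above the highest labelled male. Means were 444 ± 73.0 and 2941 ± 364 (SD, n = 3), a ratio of 6.62 and a log2 fold change of 2.73 (SE 0.13, adjusted p 5.73e-07 by limma). Thbs1 took between 2.87% and 3.17% of the reads of the 10 genes in the male-labelled libraries, and between 18.1% and 22.0% in the female-labelled ones.

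SPARC, a collagen-binding glycoprotein abundant in remodelling tissue, was also higher, though by far less. It was read at 2138, 1906 and 1934 in male 4, 5 and 6, and at 2581, 2565 and 2489 in female 4, 5 and 6. The groups did not overlap, and the female-labelled libraries lay within a narrow band. The ratio of the means was 1.28, with a log2 fold change of 0.35 (SE 0.07, adjusted p 0.00291 by limma).

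Periostin, a matricellular protein induced by TGF-beta in activated fibroblasts, was low in every library. Its reads numbered 156, 131 and 133 in the male-labelled libraries and 74, 133 and 53 in the female-labelled ones. Normalized read counts were 6.47, 4.99 and 4.70 in male 4, 5 and 6 and 3.07, 5.88 and 2.52 in female 4, 5 and 6. Female replicate 5 lay within the male range, so the groups overlapped, and the log2 fold change of -0.46 (95% interval -1.01 to 0.10) passed no threshold (limma adjusted p 0.122). Without female replicate 5 it was -0.75 and called (limma adjusted p 0.00646), so that the absence of a call rests on 1 library.

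Fibronectin was abundant, ranking between 59 and 109 among all genes by level per kilobase of coding transcript in the male-labelled libraries and between 67 and 69 in the female-labelled ones. Its normalized read count was 7488 in male 4, 5215 in male 5 and 5301 in male 6, and 6195, 6248 and 6121 in female 4, 5 and 6. The female-labelled libraries lay close together between male 4 above and the other two below. The log2 fold change was 0.06 with a 95% interval from -0.26 to 0.39 (limma adjusted p 0.703), so neither a decrease nor an increase within that interval can be told from none. The value depended on male replicate 4: without it the log2 fold change was 0.24 and called as higher (limma adjusted p 0.00111), whereas without male 5 or male 6 it was -0.03 and -0.01. Under quantile normalization Fn1 was also called higher, at 0.51 (limma adjusted p 0.00295).

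Biglycan, which binds collagen and TGF-beta and can signal through Toll-like receptors once released, was the member with the highest level per length in the male-labelled libraries. Its normalized read count was 4476, 4335 and 4210 in male 4, 5 and 6, and 2021, 2040 and 2068 in female 4, 5 and 6. No library of one group came near the other. The female-labelled libraries stood at 47.1% of the male mean, a log2 fold change of -1.09 (SE 0.07, adjusted p 3.42e-06 by limma).

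Decorin, the closest relative of biglycan in the set, was far less expressed and lower again in the female-labelled libraries. It was read at 74.3, 65.9 and 64.4 in male 4, 5 and 6, against 23.0, 18.8 and 34.5 in female 4, 5 and 6. Female replicate 6 was the highest of its group and still well below the lowest library labelled male. The female mean was 37.3% of the male mean, with a log2 fold change of -1.43 (SE 0.19, adjusted p 0.000200 by limma).

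Lumican, a proteoglycan that regulates collagen fibril diameter, was low in the male-labelled libraries and at or below the floor of 3 reads in the female-labelled ones. It had 112, 95 and 67 reads in male 4, 5 and 6, and 0, 0 and 2 reads in female 4, 5 and 6. The normalized read counts of the male-labelled libraries were 4.64, 3.62 and 2.37. Set against a floor of 3 reads per library, which covers counting error only, Lum was at least 26.6-fold lower in the female-labelled libraries. The fitted log2 fold change of -2.11 (SE 0.19, adjusted p 1.93e-05 by limma) depends on the pseudocount and reached -4.82 with a pseudocount of 0.1.

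Versican, the hyaluronan-binding proteoglycan, followed biglycan closely in size of change. Its normalized read count was 1185, 1387 and 1252 in male 4, 5 and 6 and 561, 611 and 614 in female 4, 5 and 6. All female-labelled libraries were below the lowest labelled male. The female mean was 46.7% of the male mean, a log2 fold change of -1.10 (SE 0.08, adjusted p 5.48e-06 by limma). Male replicate 4 was the lowest of its group for Vcan, whereas it was the highest for the other 9 genes.

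Fibrillin 1 was lower by a smaller margin. It was read at 765, 526 and 536 in male 4, 5 and 6, and at 418, 407 and 420 in female 4, 5 and 6. The groups did not overlap, but the spread within the male-labelled libraries came almost wholly from replicate 4. The log2 fold change was -0.53 (SE 0.13, adjusted p 0.00719 by limma), and -0.35 without male replicate 4, where it was still called.

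Elastin, the rubber-like core of elastic fibres, was low in the male-labelled libraries and near the floor of 3 reads in female 5 and 6. Its reads numbered 65, 53 and 50 in male 4, 5 and 6 and 10, 4 and 3 in female 4, 5 and 6. Normalized read counts were 2.70, 2.02 and 1.77 against 0.415, 0.177 and 0.142, without overlap. From the 168 and 17 summed reads the level was 8.52-fold higher in the male-labelled libraries, with a 95% exact binomial interval of 5.16 to 15.0 that covers counting error only. The log2 fold change was -1.34 (SE 0.15, adjusted p 8.36e-05 by limma), and -2.77 with a pseudocount of 0.1. In GENCODE M21, exons of Eln, Fbn1, Fn1 and Thbs1 each overlap those of 1 other gene on the opposite strand. None of these 4 neighbours is listed in the table, and whether counting used strand is not stated.

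**Figure D2:**
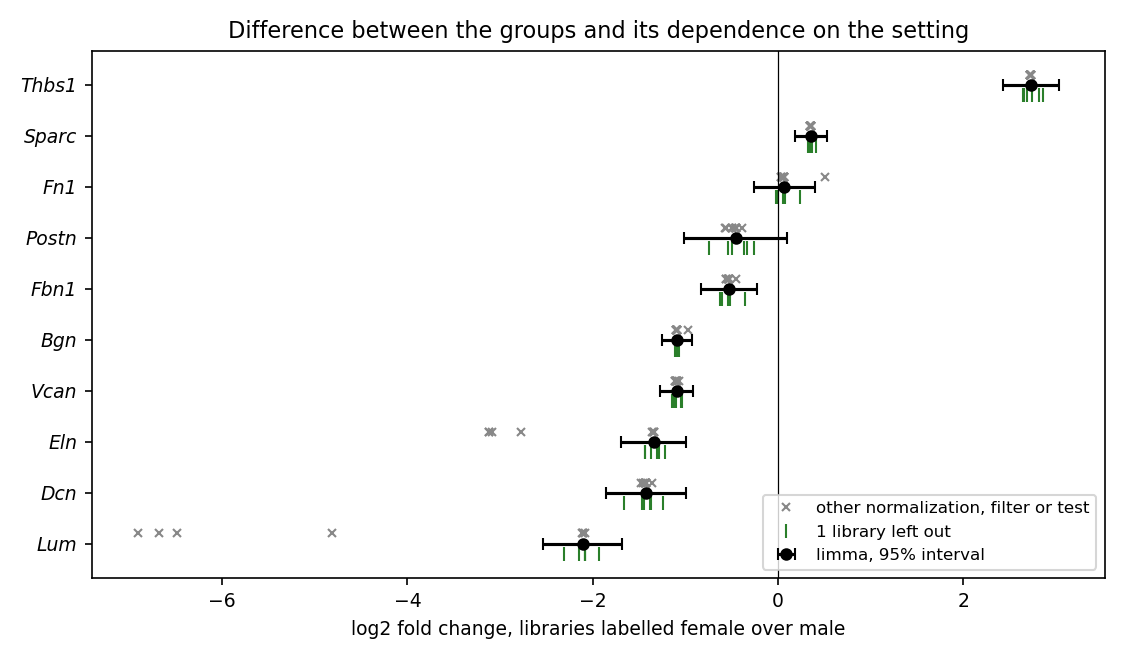
Log2 fold change of each gene, female-labelled libraries over male (x axis), with limma's 95% interval in black. Grey crosses are other normalizations, filters or tests on all 6 libraries and green ticks are fits with 1 library left out; only Fn1 has values on both sides of 0, and Lum and Eln move with the pseudocount and with count models.

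Levels of different genes were compared per kilobase of the longest coding transcript (GENCODE M21), as normalized read count per kilobase. In the male-labelled libraries the order was Bgn (1794 ± 54.8), Sparc (866 ± 55.1), Fn1 (722 ± 155), Vcan (103 ± 8.26), Thbs1 (75.9 ± 12.5), Fbn1 (50.9 ± 11.3), Dcn (38.8 ± 3.02), Postn (1.68 ± 0.296), Lum (1.45 ± 0.466) and Eln (0.561 ± 0.125), each SD over n = 3. Sparc and Fn1 overlapped in this order, as did Postn and Lum, while the other neighbours did not share a value. In the female-labelled libraries Sparc came first (1107 ± 21.4), followed by Bgn (845 ± 9.77), Fn1 (744 ± 7.69) and Thbs1 (503 ± 62.2), all SD over n = 3. Vcan (47.9 ± 2.42), Fbn1 (34.7 ± 0.577), Dcn (14.5 ± 4.63), Postn (1.19 ± 0.562), Eln (0.0635 ± 0.0385) and Lum (0.0129 ± 0.0224) came after these, and only Eln and Lum overlapped. The first place thus passed from Bgn to Sparc, and Thbs1 moved from below Vcan to above it. Among all genes with a coding transcript length, Thbs1 ranked between 785 and 1041 per kilobase in the male-labelled libraries and between 103 and 138 in the female-labelled ones. Bgn ranked between 10 and 13, and between 51 and 55.

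The 10 genes together took a similar part of the recovered reads of each library. It was 1.24% to 1.45% in the male-labelled libraries and 1.35% to 1.44% in the female-labelled ones, and these ranges overlapped. What differed was the make-up of that part. Fn1 held 37.6% to 44.9% of the reads of the 10 genes in the male-labelled libraries and 41.0% to 42.7% in the female-labelled ones. Bgn held 26.9% to 31.3% and 13.4% to 14.4%, respectively.

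Ratios of 2 genes within a library do not depend on the scaling between libraries. The pairs were chosen after their values were seen, so the ratios are descriptions. Bgn had 3.42 ± 0.329 reads per read of Vcan in the male-labelled libraries and 3.44 ± 0.146 in the female-labelled ones (SD, n = 3), so the proportion of these proteoglycans to each other overlapped between the groups while each was lower by itself. Fn1 had 9.79, 9.91 and 9.90 reads per read of Fbn1 in male 4, 5 and 6, although both genes were higher in male 4 than in male 5 and 6. That ratio was 14.8, 15.3 and 14.6 in female 4, 5 and 6. Sparc had 0.459 ± 0.0191 reads per read of Bgn in the male-labelled libraries and 1.25 ± 0.0381 in the female-labelled ones (SD, n = 3). Fn1 had 14.2, 12.7 and 13.5 reads per read of Thbs1 in male 4, 5 and 6 and 1.87, 2.15 and 2.36 in female 4, 5 and 6.

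**Figure D3:**
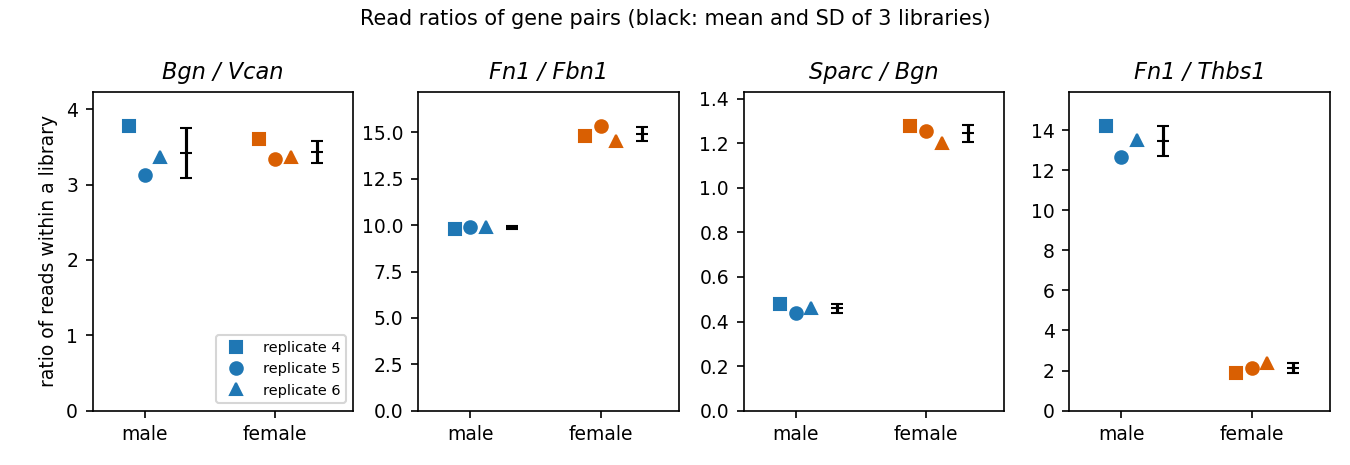
Ratio of reads of 2 matrix genes within each library (y axis, from 0) for 4 pairs, with points for libraries and the mean and SD of 3 in black. Bgn to Vcan overlaps between the groups, whereas Fn1 to Fbn1 and Sparc to Bgn are higher and Fn1 to Thbs1 is lower in the female-labelled libraries.

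Elastic fibre and microfibril genes other than Fbn1 and Eln were split as well. In this and the following comparisons, a pair of means joined by "against" gives the female-labelled libraries first, and each fold change is female over male. Genes that met the minimum of 1 in one group alone had to differ: these were Mfap5 of the elastic fibre list, Ecm2 of the proteoglycans, Smoc2, Comp and Sparcl1 of the matricellular genes, Hand2, Pi16 and Fap of the fibroblast markers, Myocd and Abcc9 of the smooth muscle markers, and Vwf and Robo4 of the endothelial markers. Without them the counts were 4 higher and 10 lower of 15 elastic fibre genes, 3 and 2 of 6 proteoglycans, 6 and 8 of 14 matricellular genes, 2 and 5 of 9 fibroblast markers, 5 and 3 of 9 smooth muscle markers, and 0 and 11 of 12 endothelial markers. Each list's count stands beside 34.6% higher and 34.6% lower among all genes tested. Of 19 listed, 17 were in the table and 16 were tested, with 5 higher, 10 lower and a median log2 fold change of -0.84 in the female-labelled libraries. The collagen- and elastin-crosslinking enzyme Lox was higher (2841 ± 130 against 1237 ± 299, SD, n = 3, log2 fold change 1.22), as was Fbln5, which tethers elastin to microfibrils (49.7 ± 1.31 against 17.8 ± 7.30, SD, n = 3). Mfap2, a microfibril component, fell from 25.9 ± 3.96 to 0.830 ± 0.364 (SD, n = 3, log2 fold change -3.88), and the elastic fibre glycoproteins Emilin1 (-2.76) and Emilin2 (-2.85) were lower too. Fbn2, the fetal fibrillin, did not meet the minimum level for testing (0.421 ± 0.204 against 1.06 ± 0.583, SD, n = 3).

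Matricellular genes outside the set showed both directions, as the members did. All 17 in the table, of 20 listed, were called, 7 higher and 10 lower, with a median log2 fold change of -1.13. Tenascin C (Tnc), a large glycoprotein of remodelling tissue, rose from 85.5 ± 22.8 to 846 ± 82.1 (SD, n = 3, log2 fold change 3.32). Ctgf (also named Ccn2), a target of TGF-beta and YAP, rose from 122 ± 46.6 to 397 ± 30.8 (1.75). Tgfbi and the SPARC relative Smoc1 were lower, with log2 fold changes of -6.82 and -3.16. Among other small leucine-rich proteoglycans, 7 of 13 listed were tested, with 3 higher, 3 lower and a median of 0.41. The connective tissue member Prelp (1.34) and osteomodulin (Omd, 1.01) were higher and Ecm2 (-0.63) was lower, so the direction of Bgn, Dcn and Lum was not that of every relative.

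Genes of the hyaluronan matrix, in which versican is held, had a median log2 fold change of -0.44 over 10 tested of 18 listed, with 1 higher and 5 lower. The hyaluronan synthase Has2 (18.9 ± 3.46 against 33.3 ± 21.8, SD, n = 3, limma adjusted p 0.154) and the hyaluronan receptor Cd44 (487 ± 39.2 against 446 ± 12.2, limma adjusted p 0.157) passed no threshold. The male mean of Has2 rests on male replicate 4 (58.4, with 21.3 and 20.2 in male 5 and 6), without which its log2 fold change moved from -0.62 to -0.14. The endothelial hyaluronan receptor Lyve1 was lower by -6.39 on the log2 scale, Hapln4, a link protein, by -2.61, and the scavenger receptor Stab1 by -2.49.

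Receptors that bind fibronectin, periostin or thrombospondin were tested for 13 of 14 listed, with 4 higher, 6 lower and a median log2 fold change of -0.23. Itgb1, the common integrin beta chain, rose from 1581 ± 166 to 3859 ± 208 (SD, n = 3, log2 fold change 1.29), whereas its fibronectin-binding partner Itga5 overlapped between the groups (464 ± 62.7 against 546 ± 87.0, limma adjusted p 0.170). Without male replicate 4, Itga5 was called lower (-0.37, limma adjusted p 0.00567). Of the alpha-v receptors, Itgav (0.63) and Itgb5 (2.19) were higher, and Itgb3 fell from 347 ± 13.3 to 17.1 ± 2.37 (-4.28). Sdc4, a heparan sulfate coreceptor for fibronectin, was lower (-1.12). Of the thrombospondin 1 receptors, Cd47 was lower (-0.37) and Cd36 was too low to be tested (0.927 ± 0.433 against 0.779 ± 0.177, SD, n = 3).

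The TGF-beta list, a pathway known to induce many matrix genes, had all 15 genes tested, with 4 higher, 8 lower and a median of -0.26. The ligand Tgfb1 fell from 225 ± 20.1 to 74.6 ± 8.14 (SD, n = 3, log2 fold change -1.58), Tgfb2 rose from 54.5 ± 3.32 to 72.7 ± 3.41 (0.41), and Tgfb3 passed no threshold (-0.06, limma adjusted p 0.409). Receptors Tgfbr2 (-1.11) and Tgfbr3 (-2.17) and the inhibitory Smad7 (-1.36) were lower.

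**Figure D4:**
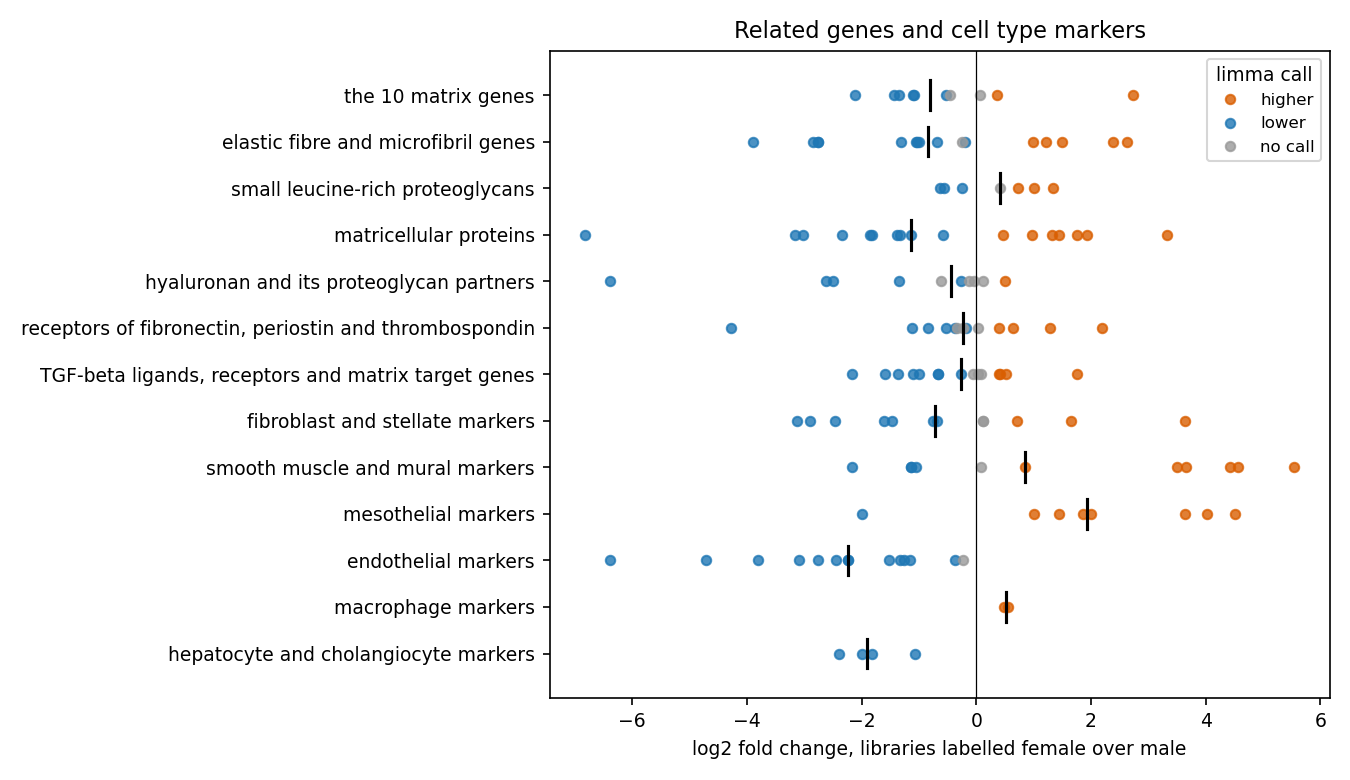
Log2 fold changes (x axis, female-labelled libraries over male) of the tested genes of each list, with the list's median as a black line. Orange points were called higher, blue called lower and grey not called by limma; endothelial markers lie on the lower side, and most smooth muscle and mesothelial markers on the higher side.

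Markers of several cell types differed between the groups along with these genes. Fibroblast and stellate markers (14 of 22 listed were in the table) summed to between 3997 and 4573 in the male-labelled libraries and between 2296 and 2451 in the female-labelled ones, with 3 of 12 tested higher and 7 lower. Among them Pdgfra (18.3 ± 1.79 against 58.0 ± 2.48) and Pdgfrb (14.3 ± 1.17 against 133 ± 3.76) were lower, as were Col3a1 (226 ± 18.9 against 1266 ± 249, SD, n = 3) and Pi16 (log2 fold change -2.89), while Pdpn (3.65), Des (0.70) and Hand2 (1.65) were higher. Col1a1, Col1a2 and Col3a1 alone summed to between 2503 and 3217 in the male-labelled libraries and between 899 and 912 in the female-labelled ones, and the other 11 genes, of which Ecm1 (1291 ± 75.9 against 1197 ± 69.2, SD, n = 3, not called) made up most, summed to 1356 to 1494 and 1397 to 1539. Without Ecm1 as well, the remaining 10 genes summed to 238 to 254 and 177 to 185, without overlap. Smooth muscle and mural markers (all 12 in the table) summed to 228 to 392 in the male-labelled libraries and 2687 to 3411 in the female-labelled ones, with 6 of 11 tested higher and 4 lower. Acta2, the actin of smooth muscle and myofibroblasts, rose from 78.6 ± 47.9 to 1694 ± 187 (SD, n = 3). Its male values were 133.6, 56.4 and 45.9 in male 4, 5 and 6, and the log2 fold change moved from 4.57 to 5.02 without male replicate 4. Myh11, the smooth muscle myosin heavy chain, was also higher (5.54). Acta2 and Tagln summed to 78.4 to 217 and 2413 to 3066, and the other 10 genes to 144 to 175 and 274 to 345. Rgs5 (-2.17), Mcam (-1.14), Abcc9 (-1.13) and Cspg4 (-1.05), which mark pericytes and other mural cells, went the other way and were lower.

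Mesothelial markers (all 9 in the table) summed to between 429 and 524 in the male-labelled libraries and between 516 and 521 in the female-labelled ones (the order of ranges for the markers that follow), with 7 of 8 tested higher and 1 lower (Krt19). Krt19, which is also in the cholangiocyte list, made up 407 to 498 of the male sums and 97.8 to 138 of the female ones, and the other 8 genes summed to between 22.2 and 26.3 and between 383 and 418. Upk3b, Upk1b, Wt1 and Gpm6a met the minimum through the female-labelled libraries alone and so had to differ, which leaves 3 higher and 1 lower of 4. Upk3b had 0 reads in each library labelled male. Msln rose from 19.4 ± 1.97 to 332 ± 29.6 (SD, n = 3). Endothelial markers (all 20 in the table) summed to between 2621 and 2672 and between 837 and 870, with 13 of 14 tested lower and 0 higher, among them Egfl7 (-3.81). Clec4g had 0 reads in the male-labelled libraries and Fcgr2b had 0 in the female-labelled ones. Macrophage markers (10 of 12 in the table) summed to 7.55 to 10.1 and 13.2 to 15.7, and both genes tested, Csf1r (0.56) and Cd68 (0.48), were higher. Of them, Ptprc, Emr1 and Tyrobp had 0 reads in the male-labelled libraries, and Emr1, Cd5l, C1qa, C1qb, C1qc and Tyrobp had 0 in the female-labelled ones. Hepatocyte and cholangiocyte markers (11 of 12 in the table) summed to 1642 to 2491 and 501 to 605, largely from Spp1, Krt19 and Sox9. All 4 tested were lower, and Spp1 is also in the matricellular list. Cps1 had 0 reads in the male-labelled libraries and Ttr had 0 in the female-labelled ones. In bulk RNA, fewer cells of a type and less RNA per cell cannot be told apart, and the part of cell makeup in the differences of the 10 matrix genes was not tested.

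The authors' deposited table called 3 of the 10 genes at a false discovery rate under 0.05, and 25.8% of all its genes. In the authors' deposited table these were Thbs1 (fold change 6.62, false discovery rate 1.17e-06), Eln (-8.62, 0.00576) and Lum (-100.4, 0.000875). Of these, Eln and Lum had few reads in the female-labelled libraries (3 to 10 and 0 to 2). The authors' deposited table gives Bgn a fold change of -2.12 with a false discovery rate of 0.0615. It gives Vcan -2.14 with 0.245, Dcn -2.68 with 0.101, Fbn1 -1.47 with 0.163 and Sparc 1.28 with 0.344, all in the authors' deposited table. The 5 genes called here and not in the authors' deposited table have the same direction in it.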

How the data were processed

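The deposited table holds signal values, which are normalized read counts: each of the authors' 6 library columns consists of whole multiples of its smallest value above 0 (100% of values, tolerance 0.05), so reads were recovered by division. Per the submitters' processing notes, Bowtie2, RSEM and edgeR were used with build mm39; versions and settings are not given in the sources used here. Per the file headers, the score column holds a signed linear fold change made by the authors, and 2 further columns hold p-values and false discovery rates that the authors deposited.

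Columns were assigned by title, and limma 3.58.1 (R 4.3.3, eBayes with trend) was fitted to log2(value + 1) over genes with at least 1 in at least 3 libraries (the smaller group's size where a library was left out). Fold changes on this scale understate those of weakly expressed genes. The design had assumed edgeR if counts were present. edgeR 4.0.16, DESeq2 1.42.0 and voom on recovered reads were alternatives, with the others in the closing section. The fits were tested on simulated reads. The members and lists were chosen with earlier results of these data known. Genes named outside the 10 were fixed partners or up to 3 of each list with the largest called change, a mean of at least 1 and no overlap. One gene so chosen is not reported here. Genes at 0 reads, genes that met the filter in one group alone, and Col1a1, Col1a2, Ecm1, Des, Hand2, Rgs5, Mcam, Abcc9 and Cspg4 were named after their values were seen. Listed symbols were matched to older symbols in the table through RefSeq synonyms (Ctgf and Emr1, for example). Promoter sequence is from RefSeq (GRCm38.p6), matched by symbol, and transcript lengths are from GENCODE M21, neither of the authors' build.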

Additional observations from a re-analysis of the deposited data

How the results depend on the processing

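Of 158 values recomputed for the 10 genes, 151 kept direction and side of the threshold. These 151 include 15 values of Eln and 15 of Lum, whose difference was fixed by the filter. The calls of Bgn, Vcan, Dcn and Thbs1 held in all 16 alternatives run. Eln and Lum, which had to differ, were not tested at a minimum of 10 reads in every library, and their calls elsewhere are no sign of stability. A further limit of 1 on the absolute log2 fold change left 2589 of 8704 genes, 1 of the 2 members called higher (not Sparc, 0.35) and 5 of the 6 called lower (not Fbn1, -0.53), by its own construction. The 5 include Eln and Lum. Fn1 was called higher without male replicate 4 (0.24) and under quantile normalization (0.51), its sign reversed without male replicate 5 (-0.026) and without male replicate 6 (-0.014), and the cause was not tested. Fits that left out 1 library called 7808 to 9642 genes, with 2 or 3 of the 10 higher and 6 or 7 lower. Under edgeR, 8981 genes were called, 2 of the 10 higher and 6 lower. The log2 fold change of Lum ran from -6.91 (DESeq2) to -1.94 and that of Eln from -3.12 to -1.22.

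Replicate numbers gave no sign of pairing the libraries (correlations of deviations -0.09, -0.03 and -0.17 for replicates 4, 5 and 6). With 3 libraries per group, these correlations cannot show that there was no pairing. Fitting the replicate block gave 8314 called genes, and no call among the 10 changed. Depth limits Lum (0 to 2 reads) and Eln (3 to 10 reads) in the female-labelled libraries.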
